A study of Mus musculus with 8 samples.

Results

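The genes described here are 56 protein-coding genes of vesicle fusion, chosen by their symbols from the 54532 genes of a count table of mouse molar enamel organs. They are 17 synaptotagmins (Syt), 15 syntaxins (Stx), 8 Vamp genes, 6 syntaxin-binding protein genes (Stxbp), 6 ferlins and 4 Snap genes. Otof, the ferlin that encodes otoferlin, is among them because its level falls steeply between the ages compared, and its values are therefore given as a description without a test. RNA was sequenced from first molar enamel organs of untreated C57BL/6 pups of wt genotype, at P5, in the secretory stage of enamel formation, and at P12, in the maturation stage. Each library was a pool of 5 pups, with 4 libraries at P5 (replicates 1, 3, 4 and 5) and 4 at P12 (replicates 1 to 4), so that p-values measure the spread between these pools. The values are normalized counts, that is the deposited read counts of a library divided by its effective size and multiplied by the mean effective size of 19006280 reads. Lists of values follow the order of the replicates just given.

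Secretory vesicles fuse with a membrane when a Vamp protein on the vesicle zips together with a syntaxin and a Snap protein on the target, a bundle known as the SNARE complex. Synaptotagmins and ferlins carry C2 domains that bind membrane lipids, in many members in response to Ca2+, and several of them couple a rise in Ca2+ to fusion. Proteins of the Munc18 family (such as Stxbp2 and Stxbp3) hold syntaxins and guide the assembly of the complex, whereas tomosyn (Stxbp5) and amisyn (Stxbp6) carry a SNARE motif of their own that can take the place of a Vamp protein. In the secretory stage, ameloblasts release enamel matrix proteins from secretory granules through Tomes' process, and in the maturation stage they resorb degraded matrix, acidify and neutralise the enamel surface and move ions.

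Library totals were 16574548 to 20262601 counts at P5 and 17588152 to 22013456 at P12, and the 56 genes together took between 0.172% and 0.203% of them. Markers of the labelled tissue were present in every library, and none of the secretory or maturation ameloblast markers was at 0. The summed normalized count of Amelx, Ambn, Enam and Mmp20 was 4966559 to 5580346 at P5 and 237041 to 621683 at P12, and that of Klk4, Amtn, Odam, Slc24a4 and Wdr72 was 12880.2 to 44228 at P5 and 356963 to 482565 at P12. Mesenchyme and odontoblast markers summed to 1021255 to 1218591 at P5 and 863851 to 1073203 at P12, with 2 of 5 lower, so that RNA of cells other than epithelium was also present. In such bulk samples, fewer cells of a type and less RNA per cell cannot be told apart. A pair of libraries stood apart from the others of their age. P5 replicate 5 had the lowest maturation marker sum at P5 (12880.2, against 36789 to 44228 in the other libraries). Its secretory marker sum was also the lowest at P5 (4966559). P12 replicate 4 had the highest secretory (621683) and the highest maturation (482565) marker sum at P12. It also had the lowest sum of 5 oral epithelium keratins (4065, against 20797 to 32927).

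Of the 56 genes, 53 passed the filter on low counts, and 52 of these were tested, since Otof was not. Between P5 and P12, 24 of the 52 fell and 15 rose at an adjusted p under 0.05 (the quasi-likelihood test of edgeR, Benjamini-Hochberg adjusted over 16440 genes, which also gives the adjusted p-values below), and 13 did not pass the threshold. These calls cover 75.0% of the genes tested, beside 57.2% of all genes past the filter, of which 28.8% rose and 28.4% fell. Calls of 1 or more on the log2 scale, in either direction, were made for 19 of the 52 genes (36.5%; 21.5% of all genes), 12 of them lower and 7 higher at P12. The 2 ages did not overlap in 36 of the 52 (69.2%; 52.5% of all genes). The median log2 fold change of the 52 genes was -0.21, beside 0.01 for all genes. When libraries were scaled by total count alone, the calls turned to 24 higher and 15 lower of the 52 genes. The median of all genes then moved to 0.38, and 8885 of the 16440 genes were called higher and 2330 lower. The 12 genes whose direction turned under that scaling had log2 fold changes between -0.36 and -0.05 here. Without P5 replicate 5 there were 15 rises and 22 falls, and without P12 replicate 4 there were 16 rises and 26 falls.

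**Figure D1:**
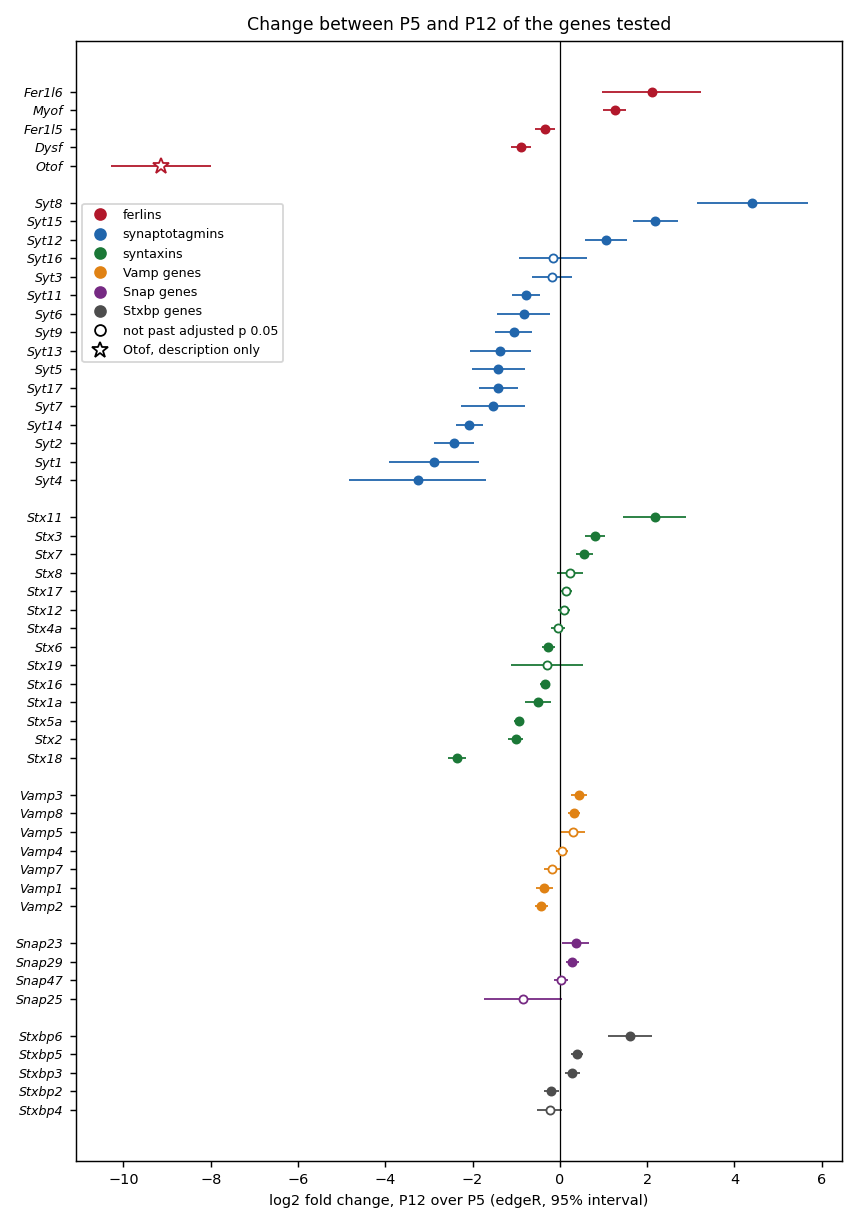
The horizontal axis gives the log2 fold change between P5 and P12 with its 95% interval for 51 of the 53 genes that passed the filter, grouped by family, with filled points for calls at an adjusted p under 0.05 and a star for Otof, which was not tested. The interval of Otof is a description only, since Otof was chosen for its fall. Most synaptotagmins lie to the left of 0, while Syt8 at 4.40 is the farthest to the right. Under total count scaling the points move to the right, with the median of all genes at 0.38.

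Otof (ENSMUSG00000062372, chromosome 5, 30367062 to 30461932 on the reverse strand, GRCm38) encodes the C2 domain protein that inner hair cells of the ear need to release transmitter, and its loss causes deafness. It shares no exonic base with another annotated gene. Reads counted to it numbered 1022, 1227, 1404 and 3374 in the P5 libraries and 5, 1, 2 and 8 in the P12 libraries. Normalized, it stood at 1314, 1372, 1851 and 3571 in the P5 libraries and at 3.67, 0.844, 1.85 and 8.03 in the P12 libraries. Every P5 library was thus far above every P12 library, and P5 replicate 5 was 1.93 times as high as the next P5 library. Summed over libraries, 7027 counts at P5 and 16 at P12 give a ratio of 601.6 per effective library size, with an exact 95% interval of 370.2 to 1053 that covers counting error only. The fitted log2 fold change was -9.14, the 3rd largest fall among the 16440 genes, and -9.77 without P12 replicate 4. Since Otof was chosen for this fall, its rank and intervals only describe it. Per kilobase, Otof was the most abundant ferlin at P5, with a normalized count of 256 ± 134 (SD, n = 4), and at P12 it was listed at 0.455 ± 0.402 (SD, n = 4). Its share of the summed ferlin level per kilobase went from 41.7% ± 11.6 to 0.0904% ± 0.0752 (SD, n = 4). P5 replicate 5, where Otof was highest, had the lowest maturation and also the lowest secretory marker sum of its age. P12 replicate 4, the highest P12 library of Otof, had the highest secretory and also the highest maturation marker sum of its age. The part of these differences in the level of Otof was not tested.

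**Figure D2:**
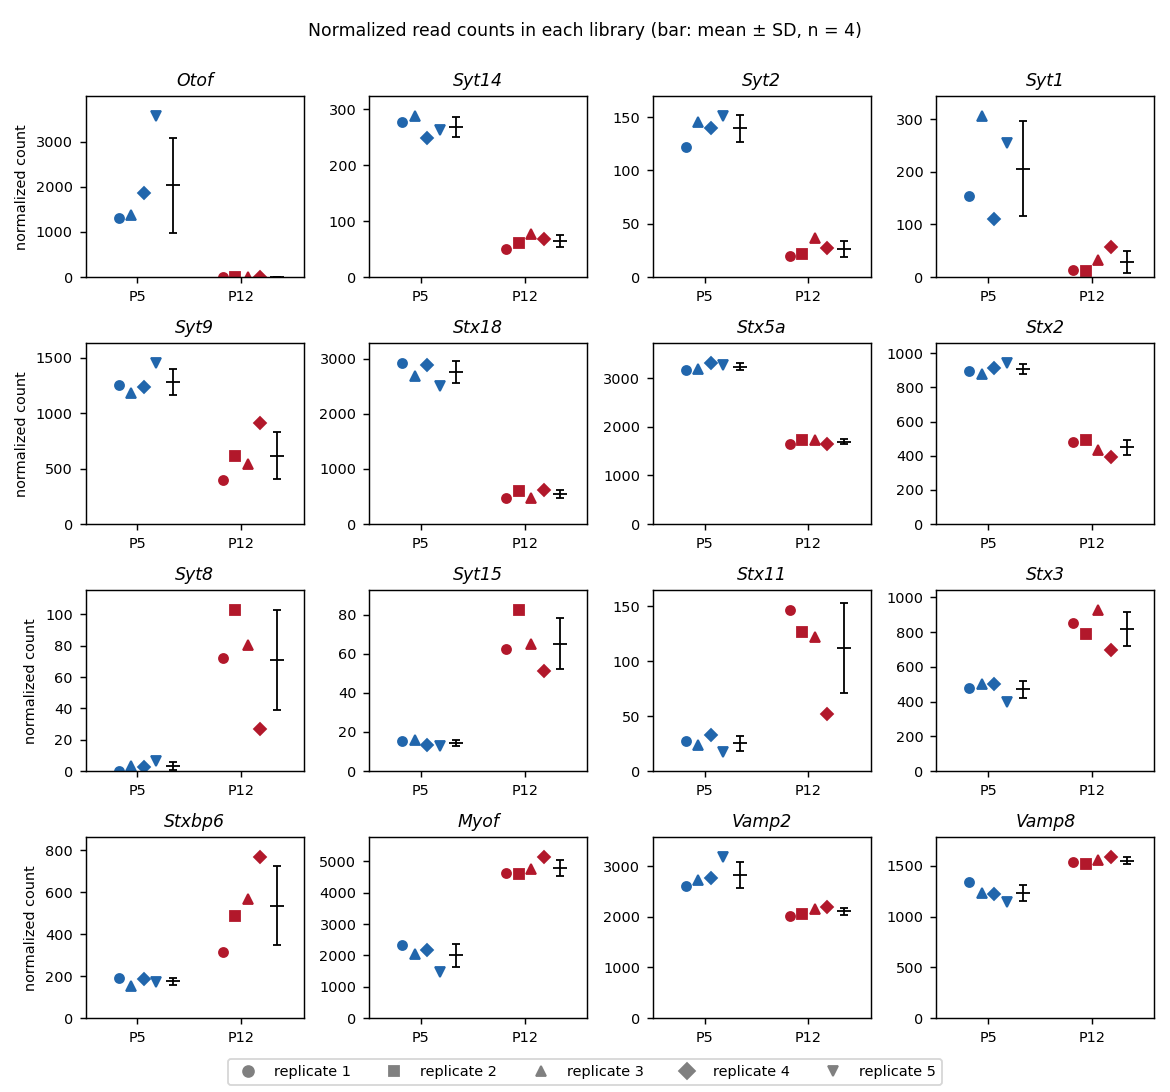
Each panel gives the normalized count of 1 gene in the 4 libraries of each age, with the marker shape for the replicate and the mean ± SD beside the points, on an axis that starts at 0. The P5 points of Otof lie between 1314 and 3571 and its P12 points at or below 8.03; Stx18, Stx5a and Syt14 separate the ages with little spread, whereas Syt1, Syt8, Stx11 and Stxbp6 spread widely within an age.

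The other ferlins split into both directions, with 2 rises and 2 falls among the 4 that were tested (2 rises and 1 fall under total count scaling). All 4 were thus called, beside 57.2% of all genes. Myof, or myoferlin, which acts in membrane repair and in endocytic recycling, stood at 2318, 2034, 2158 and 1477 at P5 and at 4638, 4599, 4751 and 5149.5 at P12. The ages did not overlap, P5 replicate 5 was the lowest library, and the log2 fold change was 1.26 ± 0.12 (SE, adjusted p = 4.7e-06). Myof took the first place among ferlins per kilobase at P12 (379.6 ± 19.97 against 158 ± 29.01 at P5, SD, n = 4), with 77.8% ± 1.16 of the summed ferlin level after 28.4% ± 9.22 at P5. That sum includes Otof, which was chosen for its fall, so part of the rise in the share of Myof follows from that choice. Fer1l6 was low at both ages, at 7.71, 7.83, 0 and 3.18 at P5 and 25.7, 16.03, 22.2 and 19.1 at P12. All P12 values were above the P5 values, with a log2 fold change of 2.11 ± 0.52 (SE, adjusted p = 0.0044) that rests on 6, 7, 0 and 3 counts at P5. Dysf, which encodes the membrane repair protein dysferlin, fell from 1032 ± 153 to 557 ± 49.5 (SD, n = 4), with no overlap and a log2 fold change of -0.89 ± 0.11 (SE, adjusted p = 2.8e-05), and 5.49% of its exonic bases are shared with the antisense gene Gm15475. Fer1l5 fell less, with a log2 fold change of -0.34 ± 0.11 (SE, adjusted p = 0.017), and without P12 replicate 2 its adjusted p was 0.051. Under total count scaling the change of Fer1l5 turned to 0.034. Fer1l4, with 2.33 at P5 and 0.647 at P12 on average, was too low to be tested.

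Promoter sequences are shown for Myof, the ferlin with the highest level at P12, and, among synaptotagmins, for the largest rise and for a fall with little spread between libraries. Each is the 250 bases before the annotated start in RefSeq (GRCm38.p6), which is also the gene's start in the deposited table, written 5′ to 3′ on the gene's strand. Capitals mark CCAAT, which reads ATTGG where it lies on the other strand. They also mark GGGCGG on either strand. TATAAA was searched in the same way. CCAAT had 1 match before Myof, GGGCGG had 4 matches before Syt14, a pair of which overlap, and none of the motifs matched in the window printed for Syt8. RefSeq lists 3 promoters for Syt8, of which 1 is printed, and 1 each for Myof and Syt14.
Myof chr19:38043578-38043827 reverse strand: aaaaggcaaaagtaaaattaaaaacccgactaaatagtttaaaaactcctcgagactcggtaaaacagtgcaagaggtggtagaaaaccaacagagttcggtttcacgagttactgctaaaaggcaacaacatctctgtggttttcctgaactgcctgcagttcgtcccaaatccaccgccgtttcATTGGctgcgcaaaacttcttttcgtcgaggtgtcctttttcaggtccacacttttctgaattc
Syt8 chr7:142434600-142434849 forward strand: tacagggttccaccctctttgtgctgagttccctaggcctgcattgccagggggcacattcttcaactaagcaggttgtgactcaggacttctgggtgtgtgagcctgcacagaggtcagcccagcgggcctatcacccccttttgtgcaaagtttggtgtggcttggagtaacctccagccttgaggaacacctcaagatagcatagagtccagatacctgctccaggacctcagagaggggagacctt
Syt14 chr1:193035776-193036025 reverse strand: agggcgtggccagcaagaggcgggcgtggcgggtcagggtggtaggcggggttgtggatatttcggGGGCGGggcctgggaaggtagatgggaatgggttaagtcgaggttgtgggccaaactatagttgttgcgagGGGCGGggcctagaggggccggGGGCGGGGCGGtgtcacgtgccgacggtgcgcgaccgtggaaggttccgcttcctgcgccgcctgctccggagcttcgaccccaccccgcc
RefSeq promoters were found for 42 of the 56 genes, 54 promoters in all. GGGCGG lay in 55.6% of these and in 32.7% of all 32851 promoters, CCAAT in 31.5% and 33.8%, and TATAAA in 3.70% and 12.4%. A match describes the letters of the window, and binding was not measured.

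Most synaptotagmins were lower at P12. Of the 16 tested, 11 fell, 3 rose and 2 did not pass the threshold (87.5% called, beside 57.2% of all genes). The median log2 fold change of the synaptotagmins was -1.21 (-0.85 under total count scaling, with 10 falls and 3 rises). Their summed level per kilobase went from 649.6 ± 78.9 at P5 to 339.5 ± 55.97 at P12 (SD, n = 4; not tested), and it was also lower at P12 under total count scaling.

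Among the sensors that trigger fast Ca2+-dependent fusion, Syt1 stood at 153, 306, 109 and 255 at P5 and at 13.9, 11.8, 32.4 and 57.2 at P12. The ages did not overlap, and at P5 replicates 3 and 5 were the high libraries. Its log2 fold change was -2.88 ± 0.47 (SE, adjusted p = 0.00029). Syt2, its close relative, was more even, at 122, 145, 139.7 and 151 at P5 and 19.8, 21.9, 36.1 and 27.1 at P12. Every P5 library was higher, with a log2 fold change of -2.42 ± 0.21 (SE, adjusted p = 2.3e-06). Syt9 was by far the most abundant synaptotagmin per kilobase at both ages (322 ± 30.1 at P5 and 155 ± 53.9 at P12, SD, n = 4). It stood at 1255, 1184, 1235 and 1456 at P5 and at 398, 618, 543 and 908 at P12. The ages did not overlap, P12 replicate 4 was the highest P12 library, and the log2 fold change was -1.06 ± 0.20 (SE, adjusted p = 0.00072). Syt9 held 49.9% ± 3.998 of the summed synaptotagmin level at P5 and 44.6% ± 8.06 at P12 (SD, n = 4). Syt7, the slow high-affinity sensor also found on lysosomes, stood at 80.99, 139.7, 88.3 and 192 at P5 and 35.9, 27.8, 44.5 and 67.3 at P12. It did not overlap between the ages, although it was highest in P5 replicate 5 and P12 replicate 4, and the log2 fold change was -1.53 ± 0.33 (SE, adjusted p = 0.0020).

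Syt4 and Syt11 form a pair whose first C2 domain does not bind Ca2+. Syt4 stood at 50.1, 84.97, 42.2 and 143 at P5 and at 1.47, 0, 15.8 and 18.1 at P12, where it rested on 2, 0, 17 and 18 counts. No P12 library reached the P5 range, and the log2 fold change was -3.26 ± 0.72 (SE, adjusted p = 0.0024), or -3.89 without P12 replicate 4. Syt11 was more abundant and fell from 297 ± 64.5 to 175 ± 14.1 (SD, n = 4), which gave a log2 fold change of -0.77 ± 0.15 (SE, adjusted p = 0.00099). Syt5 stood at 69.4, 108, 47.5 and 85.7 at P5 and at 29.3, 21.1, 34.3 and 33.1 at P12. The lowest P5 library of Syt5 was above the highest P12 library, and the log2 fold change was -1.41 ± 0.27 (SE, adjusted p = 0.0011). Syt6 fell from 29.2 ± 7.79 to 16.5 ± 2.83 (SD, n = 4), which gave a log2 fold change of -0.83 ± 0.28 (SE, adjusted p = 0.024), and this call was lost without P5 replicate 3 or 4 or P12 replicate 1, 2 or 3 (adjusted p 0.051 to 0.090). Under total count scaling the change of Syt6 was -0.46 (adjusted p = 0.15), and with no filter on low counts its adjusted p was 0.071. Syt10, a relative of Syt6, was too low to be tested, at 19.3, 5.59, 15.8 and 38.1 at P5 and 0, 2.53, 1.85 and 1.004 at P12. Syt3 had a log2 fold change of -0.18 with a 95% interval of -0.63 to 0.27, and did not pass the threshold.

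The remaining synaptotagmins are mostly thought not to bind Ca2+. Syt14 stood at 276, 288, 248 and 262 at P5 and at 50.6, 61.6, 76.9 and 67.3 at P12. The ages were widely separated with little spread, and its log2 fold change was -2.07 ± 0.14 (SE, adjusted p = 3.8e-07). Syt17, which lacks the transmembrane segment of the family, stood at 356, 316, 315 and 373 at P5 and 129, 83.5, 112 and 189.8 at P12. Every P5 library was above every P12 library, of which replicate 4 was the highest, and the log2 fold change was -1.41 ± 0.20 (SE, adjusted p = 0.00012). Syt13 stood at 33.4, 103, 96.2 and 69.9 at P5 and at 30.1, 24.5, 26.9 and 36.1 at P12. P5 replicate 1 lay within the P12 range, so that the ages overlapped, although the log2 fold change of -1.37 ± 0.32 (SE, adjusted p = 0.0035) passed the threshold.

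Syt8 was the largest rise of the 52 genes. It had 0, 3, 2 and 6 counts at P5 and 98, 122, 87 and 27 at P12, and normalized it stood at 0, 3.35, 2.64 and 6.35 and at 71.9, 103, 80.6 and 27.1. All P12 libraries were above the P5 libraries, P12 replicate 4 was the lowest of them, and the log2 fold change was 4.40 ± 0.58 (SE, adjusted p = 6.3e-05), or 5.02 without P5 replicate 5. Syt15 stood at 15.4, 15.7, 13.2 and 12.7 at P5 and 62.3, 82.7, 64.9 and 51.2 at P12. Its ages did not overlap, P12 replicate 4 was again the lowest, and the log2 fold change was 2.19 ± 0.24 (SE, adjusted p = 1.5e-05). Syt12 stood at 25.7, 33.5, 32.96 and 30.7 at P5 and 66.7, 75.9, 67.6 and 46.2 at P12. P12 replicate 4 was closest to the P5 range without reaching it, and the log2 fold change was 1.06 ± 0.22 (SE, adjusted p = 0.0015). Of its exonic bases 17.2% are shared with the antisense gene A930001C03Rik, which had at most 20 counts. Syt16 had a log2 fold change of -0.16 with a 95% interval of -0.94 to 0.63. It did not pass the threshold, and its direction changed with the library left out.

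Markers of other cells moved with these changes. The summed level of 9 neuron markers was 3114 to 4998 at P5 and 1142 to 1277 at P12, with 8 of the 9 lower at P12, and the highest P5 sums were in replicates 3 (4631) and 5 (4998), the libraries in which Syt1, Syt4, Syt5 and Syt7 were also highest. The 4 neuroendocrine markers that were tested all fell, and their list summed to 192 to 379 at P5 and 16.9 to 101 at P12. Skeletal muscle markers, in whose tissue Dysf is best known, summed to 547 to 1059 at P5 and 298 to 363 at P12, with 4 of the 5 tested lower. At P5, Dysf was highest in replicate 5 (1262), the library with the lowest muscle marker sum of that age (547). None of these markers was at 0 in all libraries, but Nefl and Chga were each at 0 in 1 P12 library and Myh3 in 3. Syt8, Syt12, Syt15 and Stx11 were lowest among P12 libraries in replicate 4, as were the oral epithelium keratins, all 5 of which rose, and the macrophage and osteoclast sum (4066). So were the Schwann cell (1122), mesenchyme and odontoblast (863851), mast cell (77.3) and erythroid and platelet (14855) sums. In the same library, where Syt1, Syt4 and Syt7 were at their P12 maximum, 6 of the 9 neuron markers were also highest (Elavl3, Elavl4, Uchl1, Nefl, Nefm and Rbfox3), with Elavl3 at 66.3 beside 5.87 to 28.7 and Rbfox3 at 68.3 beside 6.75 to 33.4. The abundant Tubb3 (479.9) and Stmn2 (263) were lowest there, which left the neuron sum the lowest of its age. All 5 neuroendocrine markers were highest in that library, but only Chga stood well apart, at 41.2 beside 0 to 6.49. The others were low and close to the next library, such as Chgb at 29.1 beside 26.9 and Pcsk1 at 9.04 beside 8.44. Macrophage and osteoclast markers summed to 1670.2 to 2443 at P5 and 4066 to 9095 at P12, with 4 of 5 higher. Endothelium markers summed to 1922 to 2306 and 3719 to 4031, with 3 of 3 higher, and Schwann cell markers to 665 to 935 and 1122 to 1655, with 3 of 5 higher. Mast cell markers summed to 44.7 to 67.2 and 77.3 to 97.3, with 1 of 4 higher, and those of erythroid cells and platelets to 15858 to 30154 and 14855 to 17819.9, with 1 higher and 1 lower of 4. The part of these cells in the changes was not tested.

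Of the 15 syntaxins, 7 fell, 3 rose and 5 did not pass the threshold (66.7% called, beside 57.2% of all genes). Their median log2 fold change was -0.26. Under total count scaling, with a median of 0.38 for all genes, that of the syntaxins became 0.11, with 7 rises and 4 falls. Their summed level per kilobase went from 3399.9 ± 65.3 at P5 to 2552 ± 57.5 at P12 (SD, n = 4; not tested), and under total count scaling from 2948 ± 44.2 at P5 to 2864 ± 119 at P12. The largest change was that of Stx18, a syntaxin of the endoplasmic reticulum that receives vesicles returning from the Golgi. Stx18 stood at 2929.8, 2698, 2896 and 2506 at P5 and at 478, 591, 481 and 610.4 at P12. The ages were far apart beside the spread of the libraries, and the log2 fold change was -2.35 ± 0.096 (SE, adjusted p = 8.1e-09). It was the most abundant syntaxin per kilobase at P5 (600.4 ± 42.7, SD, n = 4), with 118 ± 15.4 at P12. Of its exonic bases 32.3% are shared with the antisense gene Gm42858, which had at most 37 counts in a library. Stx5a, which acts in traffic from the endoplasmic reticulum to the Golgi, had the next highest level at P5 (556 ± 12.5 per kilobase) and fell from 3229 ± 72.3 to 1689 ± 53.97 (SD, n = 4), which gave a log2 fold change of -0.94 ± 0.054 (SE, adjusted p = 1.0e-07).

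Syntaxins of the plasma membrane moved in different directions. Stx2, found on the surface of epithelial cells, stood at 896, 878, 911 and 944 at P5 and at 479, 491, 436 and 393 at P12. All P5 libraries were above all P12 libraries, with a log2 fold change of -1.01 ± 0.079 (SE, adjusted p = 1.0e-06). Stx3, which serves the apical membrane, rose from 469.8 ± 47.3 to 819 ± 97.9 (SD, n = 4), without overlap, and its log2 fold change was 0.80 ± 0.10 (SE, adjusted p = 4.9e-05). Stx4a, known from the basolateral membrane, was the most abundant syntaxin per kilobase at P12 (484 ± 26.3 against 499.8 ± 34.9 at P5, SD, n = 4). It stood at 1271, 1102, 1122 and 1231 at P5 and at 1149.6, 1178, 1196 and 1056 at P12. The ages overlapped, and the log2 fold change of -0.045 had a 95% interval of -0.20 to 0.11. Stx1a, known from nerve terminals, fell from 271 ± 44.9 to 191 ± 20.8 (SD, n = 4), which gave a log2 fold change of -0.51 ± 0.13 (SE, adjusted p = 0.0070) that was -0.13 (adjusted p = 0.45) under total count scaling.

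Stx11, a lipid-anchored syntaxin that killer lymphocytes need for granule release, was the largest rise among syntaxins. It stood at 27.00, 23.5, 32.96 and 16.9 at P5 and at 147, 127, 121 and 52.2 at P12. All P12 libraries were higher, with replicate 4 well below the other 3, and the log2 fold change was 2.17 ± 0.33 (SE, adjusted p = 0.00019). Stx19, also without a transmembrane segment, was low, at 12.6 ± 3.13 and 10.1 ± 4.02 (SD, n = 4), and its log2 fold change of -0.30 had a wide 95% interval of -1.13 to 0.52. Of the endosomal syntaxins, Stx7 rose from 532 ± 65.8 to 784 ± 30.8 (SD, n = 4), which gave a log2 fold change of 0.56 ± 0.088 (SE, adjusted p = 0.00024). Stx12 (0.099, 95% interval -0.043 to 0.24) and Stx8 (0.23, -0.055 to 0.52) did not pass the threshold, and without P12 replicate 1 Stx8 did, at 0.32 (adjusted p = 0.046). The syntaxins of the trans-Golgi network both fell by little, with log2 fold changes of -0.35 ± 0.053 (SE, adjusted p = 0.00018) for Stx16 and -0.26 ± 0.071 (SE, adjusted p = 0.0079) for Stx6, and both turned positive under total count scaling (0.026 and 0.11). Stx17, which fuses autophagosomes with lysosomes, had a log2 fold change of 0.15 with a 95% interval of 0.011 to 0.28 and an adjusted p of 0.062, and its ages did not overlap. Without P12 replicate 2 its adjusted p was 0.047.

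The Vamp genes changed little. Of the 7 that were tested, 2 rose, 2 fell and 3 did not pass the threshold (57.1% called, beside 57.2% of all genes). All log2 fold changes lay between -0.42 and 0.44. Under total count scaling 8885 of all 16440 genes rose and 2330 fell. Of the 7 Vamp genes 5 then rose and none fell, with a median of 0.42 beside 0.38 for all genes. The summed level per kilobase went from 2250.1 ± 41.9 at P5 to 2359 ± 76.1 at P12 (SD, n = 4; not tested), and under total count scaling from 1951 ± 34.1 at P5 to 2646 ± 66.5 at P12. Vamp2, the synaptobrevin of synaptic and many other regulated vesicles, was the most abundant of the 56 genes per kilobase at P5 (743 ± 65.7, SD, n = 4). It stood at 2620.0, 2736, 2775 and 3193 at P5 and at 2029, 2058, 2162 and 2189.7 at P12. Every P5 library was higher, with a log2 fold change of -0.42 ± 0.071 (SE, adjusted p = 0.00035), which shrank to -0.053 under total count scaling. Vamp8, known from late endosomes and from granules of gland cells, was the most abundant of the 56 at P12 (672 ± 13.3 per kilobase, SD, n = 4, against 535 ± 34.8 at P5). It stood at 1341, 1229.8, 1226 and 1145 at P5 and at 1539, 1519, 1562 and 1590.3 at P12. The ages did not overlap, and its log2 fold change was 0.33 ± 0.061 (SE, adjusted p = 0.00074). Vamp3, or cellubrevin, the Vamp of recycling endosomes, rose from 1393 ± 136 to 1894 ± 136 (SD, n = 4), which gave a log2 fold change of 0.44 ± 0.081 (SE, adjusted p = 0.00069). Vamp1, the other synaptobrevin, fell from 422 ± 28.3 to 329.8 ± 26.9 (SD, n = 4), which gave a log2 fold change of -0.36 ± 0.087 (SE, adjusted p = 0.0043), and its change was 0.014 under total count scaling.

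Vamp4, of the trans-Golgi network, had a log2 fold change of 0.049 with a 95% interval of -0.085 to 0.18. Vamp7, of late endosomes and lysosomes, had -0.18 with an interval of -0.36 to -0.0023 and an adjusted p of 0.078, and Vamp5, best known from muscle, had 0.30 with an interval of 0.019 to 0.58 and an adjusted p of 0.065. Both passed the threshold without P12 replicate 4, Vamp7 at -0.24 and Vamp5 at 0.35, and Vamp5 also without P5 replicate 5 (0.36). Vamp5 and Vamp8 lie on the same strand of chromosome 6 with 4755 bases between them. Vamp9 was too low to be tested, at 2.999 at P5 and 1.67 at P12 on average.

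Of the 4 Snap genes, which supply a pair of helices to the complex, 2 rose and 2 did not pass the threshold. Under total count scaling 3 rose, with a median log2 fold change of 0.53 beside 0.38 for all genes. Snap23, the form found in most cells, was the most abundant at P12 (409.7 ± 103 per kilobase, SD, n = 4, against 318 ± 14.3 at P5). It stood at 1382, 1377, 1281 and 1428 at P5 and at 1403, 1609.9, 1614 and 2408 at P12. The ages overlapped, P12 replicate 4 was the highest library, and the log2 fold change of 0.36 ± 0.14 (SE, adjusted p = 0.044) lost its call when any P5 library was left out (adjusted p 0.071 to 0.11). With limma-voom its adjusted p was 0.063. Without P12 replicate 4 it was 0.17 (adjusted p = 0.043). Snap47, an intracellular form, had the highest level at P5 (333 ± 27.7 per kilobase, SD, n = 4, against 340.0 ± 17.9 at P12), above Snap23 by less than its own spread. It stood at 821, 899, 830.5 and 980.1 at P5 and at 927, 921, 927 and 830.3 at P12. The ages overlapped, the 95% interval of its log2 fold change was -0.13 to 0.19, and 11.6% of its exonic bases are shared with Jmjd4 on the opposite strand. Snap29, which acts with Stx17 on autophagosomes, rose from 419 ± 18.6 to 512 ± 12.4 (SD, n = 4), which gave a log2 fold change of 0.29 ± 0.066 (SE, adjusted p = 0.0030). Snap25, the neuronal form, stood at 248, 347, 247 and 273 at P5 and at 80.6, 64.97, 158 and 328 at P12. P12 replicate 4 alone lay within the P5 range. The log2 fold change was -0.84 ± 0.41 (SE, adjusted p = 0.10), and without that library it was -1.48 (adjusted p = 0.00024). With all libraries Snap25 also passed the threshold with limma-voom (-1.19, adjusted p = 0.018) and with no filter on low counts (adjusted p = 0.029).

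Of the 6 syntaxin-binding protein genes, 3 rose, 2 fell and 1 did not pass the threshold (83.3% called, beside 57.2% of all genes). Under total count scaling 4 rose and none fell, with a median log2 fold change of 0.42 beside 0.38 for all genes. Stxbp2, or Munc18-2, which serves granule release in epithelial and blood cells, was the most abundant per kilobase at both ages (454 ± 21.4 at P5 and 398 ± 39.7 at P12, SD, n = 4). It stood at 1923, 1764, 1901 and 1972 at P5 and at 1456, 1635, 1667 and 1859 at P12. The ages overlapped, and the log2 fold change of -0.19 ± 0.077 (SE, adjusted p = 0.0498) was at the edge of the threshold: it lost its call when any 1 library other than P5 replicate 3 or P12 replicate 4 was left out (adjusted p 0.086 to 0.11) or when no filter on low counts was used (adjusted p = 0.10), and it turned to 0.18 under total count scaling. Stxbp3, or Munc18c, rose from 572 ± 24.6 to 697 ± 64.4 (SD, n = 4), which gave a log2 fold change of 0.29 ± 0.078 (SE, adjusted p = 0.0084). Stxbp4 had a log2 fold change of -0.23 with a 95% interval of -0.51 to 0.054.

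Both members with a SNARE motif of their own rose. Stxbp6, or amisyn, stood at 189, 154, 185 and 171 at P5 and at 314, 489, 569.9 and 770.1 at P12. The P5 libraries were close together, the P12 libraries were all higher and spread over a wide range, with replicate 1 the lowest and replicate 4 the highest, and the log2 fold change was 1.61 ± 0.23 (SE, adjusted p = 0.00011). Stxbp5, or tomosyn, rose from 889 ± 43.9 to 1166 ± 58.1 (SD, n = 4), without overlap, and its log2 fold change was 0.39 ± 0.063 (SE, adjusted p = 0.00030).

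Set side by side per kilobase of gene length, the levels of the 56 genes covered a wide range at each age. At P5 the order ran from Vamp2 (743) over Stx18 (600.4), Stx5a (556), Vamp8 (535) and Stx4a (499.8) down to Fer1l4 (0.338), with Otof in place 13. At P12 it ran from Vamp8 (672), Vamp3 (656), Vamp2 (554), Stx4a (484) and Stx12 (449.7) down to Otof in place 55 and Fer1l4 (0.0938) in place 56. Vamp8 and Vamp3 at P12 differed by less than the spread of Vamp3 between libraries (SD 47.1). Myof went from place 16 to place 8, Stx18 from 2 to 21, Stxbp6 from 36 to 22 and Syt8 from 54 to 31. By family, the summed level per kilobase went from 814 ± 46.7 at P5 to 921 ± 105 at P12 for Snap genes, from 758 ± 27.2 at P5 to 788 ± 77.5 at P12 for Stxbp genes and from 588 ± 129.7 at P5 to 488 ± 25.7 at P12 for ferlins (SD, n = 4; not tested). The ferlin sum includes Otof, chosen for its fall, at 256 per kilobase at P5 and 0.455 at P12. Under total count scaling the ferlin sum went the other way, from 510.1 ± 116 at P5 to 547 ± 15.5 at P12, and the Snap and Stxbp sums were higher at P12 in every library.

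**Figure D3:**
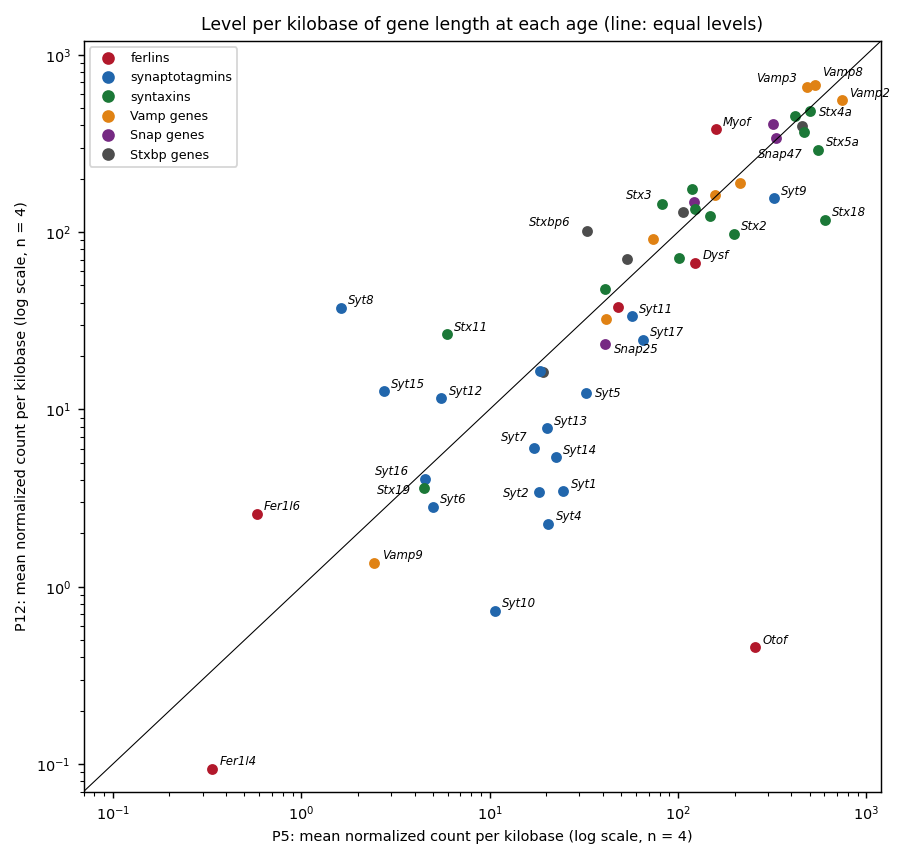
The axes give the mean normalized count per kilobase of gene length at P5 and at P12, both on log scales, with 1 point for each of 54 of the 56 genes and a line of equal levels. Otof lies far below the line, at 256 and 0.455, most synaptotagmins lie below it and most Vamp and Snap genes close to it, while Syt8, Stx11, Syt15 and Myof lie above.

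Within an age, many of the genes were high or low in the same library. P12 replicate 4 was the highest of the P12 libraries for 29 of the 53 genes past the filter (54.7%; 33.4% of all genes), and for 17 of the 25 that were lower at P12, Otof included (68.0%; 39.5% of all genes that fell). P5 replicate 5 was the highest P5 library for 15 of these 25 (60.0%; 46.1% of all genes that fell). For Snap25 the level in P12 replicate 4 was 3.24 times the mean of the other P12 libraries, for Syt4 it was 3.15 times, for Syt1 2.95 times and for Otof 3.79 times. For Stx11 it was 0.397 times, for Syt8 0.318 times and for Syt16 0.469 times that mean. The ratio of Otof rests on 8 counts beside 5, 1 and 2. P12 replicate 3 was close to replicate 4 for Syt4 (15.8 beside 18.1) and for Syt16 (24.1 beside 20.1). P12 replicate 4 also had the highest secretory ameloblast sum, the highest maturation ameloblast sum and the lowest keratin sum of its age. Several other marker lists had their lowest P12 sum there too. The part of this in the differences was not tested.

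**Figure D4:**
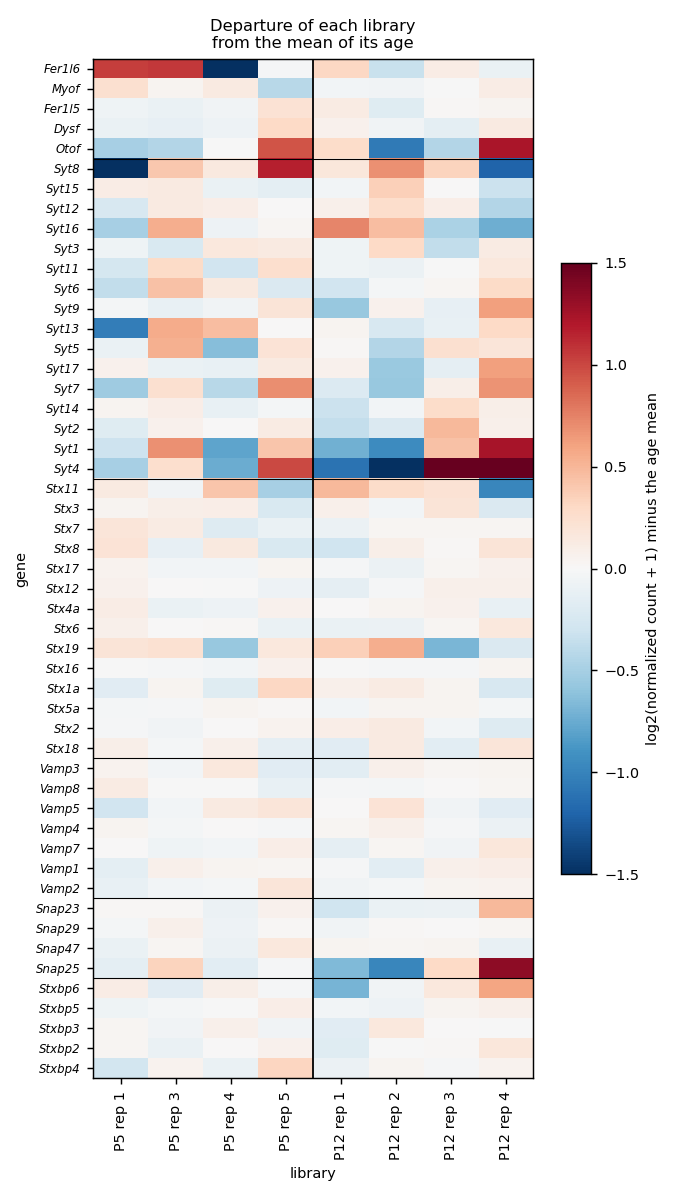
Rows are 51 of the 53 genes that passed the filter, ordered as in the plot of changes, columns are the 8 libraries, and the colour gives log2 of the normalized count plus 1 minus its mean over the 4 libraries of the same age, on a scale that ends at 1.5 either way. In P12 replicate 4, Otof, Syt1, Syt4, Snap25, Syt7 and Stxbp6 are above the mean of their age and Syt8, Stx11 and Syt16 below it, and in P5 replicate 5 Otof, Syt4 and Syt7 are above.

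Other genes of the same pathway were followed in 9 lists, with 65 genes in the count table and 60 tested. Of these 60, 30 fell and 14 rose (73.3% called, beside 57.2% of all genes), and 16 did not pass the threshold. The median log2 fold change was -0.24. Under total count scaling the calls turned to 28 rises and 17 falls, beside 8885 and 2330 among all 16440 genes. Among the factors that prime vesicles for fusion, 6 of 11 fell and 2 rose. The largest falls were those of Cadps (-2.47), needed for dense-core vesicles, and Rims4 (-2.37), and the rises those of Unc13b (0.96) and Unc13d (0.87), the form that acts in granules of blood cells. Both complexins that were tested, which clamp and assist the SNARE complex, fell. Cplx2 stood at 1166, 1133, 925 and 1189.7 at P5 and 539.6, 533, 539 and 623 at P12, with a log2 fold change of -0.98 ± 0.091 (SE, adjusted p = 3.9e-06), and Cplx1 had -2.12 ± 0.48 (SE, adjusted p = 0.0026). Of 7 other C2 domain and Rab effector genes 5 fell, among them Rph3a (-2.29) and Doc2b (-1.14), and Rph3al rose (0.61).

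The secretory Rabs, small GTPases that bring granules to the plasma membrane, moved apart. Rab27a stood at 629, 675, 709 and 829.8 at P5 and at 152, 150.2, 194 and 157 at P12. The ages did not overlap, and the log2 fold change was -2.13 ± 0.11 (SE, adjusted p = 5.6e-08). Its relative Rab27b rose from 191 ± 17.8 to 362 ± 91.3 (SD, n = 4), which gave a log2 fold change of 0.93 ± 0.17 (SE, adjusted p = 0.00069). Rab3c fell, with a log2 fold change of -3.25 ± 0.46 (SE, adjusted p = 0.00010). Rab3d, the form of exocrine glands, rose from 268 ± 25.3 to 539 ± 85.2 (SD, n = 4), which gave a log2 fold change of 1.01 ± 0.12 (SE, adjusted p = 2.7e-05). Of the 4 genes that take the spent complex apart, Napa (-0.48) and Napb (-0.47) fell and Napg rose (0.27). Of 10 other SNAREs 6 fell, led by Sec22b (-0.82) and Bet1l (-0.81) of the path between endoplasmic reticulum and Golgi, and the endosomal Vti1b (0.58) and Vti1a (0.25) rose. Relatives of the Munc18 proteins fell in 3 of the 5 genes tested, with Scfd1 (-0.63) and Scfd2 (-0.54) the largest. The exocyst, which tethers vesicles to the plasma membrane, had 5 rises among 9 genes, led by Exoc4 (0.59) and Exoc8 (0.47), and 1 fall, Exoc3 (-0.43). Of 6 genes for the insertion of tail-anchored proteins, the route by which many SNAREs enter the membrane, Asna1 rose (0.28) and Wrb (-0.37) and Sgta (-0.18) fell. Under total count scaling the medians of the disassembly, other SNARE, Munc18 relative and tail anchor lists turned positive, at 0.09, 0.09, 0.10 and 0.32. The median of all genes was then 0.38.

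**Figure D5:**
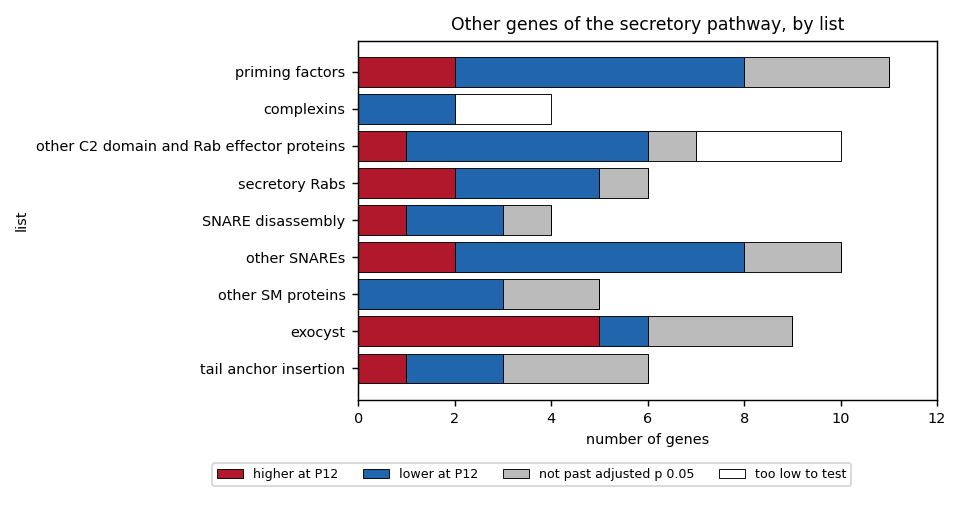
Bars give the number of genes in each of the 9 lists, divided into those higher at P12, those lower at P12, those not past an adjusted p of 0.05 and those too low to test. Falls outnumber rises in every list but the exocyst, with 5 rises and 1 fall. Under total count scaling, rises and falls are 28 and 17 in all, beside 8885 and 2330 among all 16440 genes. With that scaling the medians of 4 further lists turn positive.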

How the data were processed

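RNA-seq of first molar enamel organs was deposited as 1 table of raw read counts per gene, which the authors made from poly(A)-selected libraries of pooled pups. The submitters' notes name mm39 and CASAVA, but 53585 of the 54532 genes have the coordinates of GENCODE M21 (GRCm38), the build printed here; the aligner, the counting tool and its use of strand are not given in the sources used here, so reads of overlapping genes on opposite strands may be mixed.

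Counts were tested in R 4.3.3 with edgeR 4.0.16, using TMM scaling, the filterByExpr filter on low counts and the quasi-likelihood test of P12 against P5 over 8 libraries, with Benjamini-Hochberg adjustment over 16440 genes and a threshold of 0.05. Standard errors come from the F statistic, and levels per kilobase use the deposited gene length. All 8 columns of counts were assigned to samples, at 16574548 to 22013456 counts each; a floor of 3 counts is 0.136 to 0.181 CPM. The genes and gene lists were chosen with earlier results of these data known. All libraries are given for Otof, for genes called at 1 or more on the log2 scale in either direction with a mean of 20 normalized counts or more at an age, and for the most abundant of each family per kilobase; of each partner list, the 2 largest rises and falls are named. DESeq2 1.42.0, limma 3.58.1 (voom), other scalings, filters and thresholds, each library left out and a replicate block were alternatives. Counts cover all 56 genes, but 2 of them are not reported here singly. The scripts were tested on simulated data.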

Additional observations from a re-analysis of the deposited data

Results flagged for a closer look

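Among 106 combinations of a gene and an age, each with 4 libraries, 6 had a library whose gap to the nearest of the other 3 was large beside the whole range, where chance gives about 5.3. At P5, Dysf was at 1262 in replicate 5, beside 943.6 to 971.5 in the other libraries. Fer1l5, another ferlin, was at 354.6 in the same library, beside 285 to 293. Stx19 was low in P5 replicate 4, at 7.91 beside 13.8 to 14.5. At P12, Snap47 was at 830.3 in replicate 4, beside 921 to 927, and Stx16 was at 1503 in that library, beside 1440.3 to 1447. Stx7 was low in P12 replicate 1, at 737.6 beside 797 to 802. All 6 are normalized counts.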

How the results depend on the processing

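The 15 rises and 24 falls among the 52 tested genes were 15 and 24 with DESeq2 and 14 and 25 with limma-voom, and 14 to 16 rises and 21 to 26 falls when 1 library was left out. Total count scaling gave 24 rises and 15 falls, beside 8885 and 2330 among all 16440 genes. A minimum absolute log2 fold change of 1 gave 7 and 12. For the partner genes, with 14 rises and 30 falls, total count scaling gave 28 and 17, the minimum fold gave 1 and 9, and leaving out 1 library gave 13 to 14 rises and 25 to 29 falls. Total count scaling turned 12 genes to a positive log2 fold change, among them Stxbp2 (0.18), Stxbp4 (0.14), Vamp1 (0.014), Vamp7 (0.19), Fer1l5 (0.034), Syt16 (0.23), Syt3 (0.19), Stx16 (0.026), Stx19 (0.071), Stx4a (0.33) and Stx6 (0.11). Among these, Vamp1, Fer1l5, Stx16 and Stx6 lost their calls as falls, and Vamp7 and Stx4a were called as rises. Stxbp2 turned from a called fall to a called rise. That scaling also took the calls of Vamp2, Syt6 and Stx1a away, at -0.053, -0.46 and -0.13. It gave further calls to Snap47 (0.40), Vamp4 (0.42), Vamp5 (0.68), Stx12 (0.47), Stx17 (0.52) and Stx8 (0.60). Snap47 turned to -0.0083 without P5 replicate 1 and -0.0028 without P5 replicate 4, in a range up to 0.078 over the libraries left out. Syt16 turned to 0.053 without P5 replicate 3, 0.0062 without P12 replicate 3 and 0.040 without P12 replicate 4, in a range down to -0.45. The cause of these changes was not tested, beyond the shift of all genes that total count scaling brings.

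The ages share the replicate numbers 1, 3 and 4, but deviations from the age mean correlated by 0.043, 0.0028 and -0.036 between libraries of the same number, so the numbers were not taken as pairs. Over these 6 libraries the replicate block gave 13 rises and 20 falls, as did the fit without it, and for partners 9 and 24, beside 11 and 25. Not every library correlated best with its own number. At this depth Syt10, Vamp9 and Fer1l4 were too low to test.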
